A study of Mus musculus with 6 samples.

Results

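The 9 genes described here encode receptors of the interleukin 6 (IL6) cytokine family, the leptin receptor, both signalling subunits of the interleukin 1 (IL1) receptor and the natural antagonist of that receptor. They were taken by name (Il6st, Lifr, Osmr, Lepr, Il6ra, Il11ra1, Il1r1, Il1rap and Il1rn), not by their values, from 54532 gene identifiers. Each was matched to its Ensembl identifier through GENCODE vM21. RNA of whole liver was sequenced in 6 libraries, 3 from mice labelled as liver-specific Arid2 knockouts (LKO) and 3 from mice labelled WT, all without treatment. ARID2 is a subunit of the PBAF chromatin remodelling complex, and the series title links it to fatty liver and to the kinase JAK2, which IL6-family receptors use. The sources used here do not give the Cre driver, strain, age, sex or diet of the mice. They also do not say whether libraries stand for separate mice, and the p-values below therefore cover only the spread among the libraries, which may be technical.

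IL6-family cytokines bind a receptor that holds gp130, the product of Il6st. IL6 and IL11 first bind a subunit of their own (IL6RA or IL11RA), which then recruits gp130; leukemia inhibitory factor uses a pair of LIFR and gp130, and oncostatin M in the mouse mainly a pair of OSMR and gp130. These receptors carry JAK kinases that activate STAT3, and in hepatocytes this pathway drives the acute phase response. IL1 binds IL1R1, which recruits the accessory protein IL1RAP and signals through MYD88 to NF-kB, while the protein made from Il1rn occupies IL1R1 without signalling.

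Values are FPKM, reads per kilobase of merged exon length and per unit of a library scale, so levels of different genes can be compared per length. The deposited steps corresponded to between 13947787 and 18159285 reads in the LKO libraries and between 16140525 and 17312282 in the WT libraries. Both replicate 1 libraries had fewer genes with 1 to 5 reads (2368 in LKO and 2003 in WT) than the other libraries (3913 to 4263). Mitochondrial genes took 27.6%, 7.72% and 4.76% of reads in LKO replicates 1 to 3 and 20.7%, 10.2% and 18.5% in WT replicates 1 to 3. Arid2 itself had 2.55, 1.33 and 2.04 FPKM in LKO replicates 1 to 3 and 2.65, 1.74 and 1.79 FPKM in WT replicates 1 to 3. These gene totals overlap and cannot show a single deleted exon, so they did not check the genotype labels, and all directions below are between libraries as labelled.

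Of the 9 genes, 4 lay higher in every LKO library than in any WT library: the shared subunit gene Il6st, the IL6-binding subunit gene Il6ra, the leptin receptor gene Lepr and the antagonist gene Il1rn. One gene, Il11ra1, lay lower in every LKO library, and the other 4 overlapped. All 9 averaged at least 0.5 FPKM over the 6 libraries and entered the test, Il1rn only through its LKO values. None of the 9 passed the threshold in limma at an adjusted p under 0.05 in either direction. An unadjusted p under 0.05 was found for 4, Il1rn among them, and for 9.22% of all 11672 genes tested. Over all genes, 0.00857% were called higher and 0.0343% lower in LKO, 8.0% lay higher in all LKO libraries without overlap and 7.42% lower. Array quality weights, which down-weight libraries that deviate, gave limma adjusted p-values of 0.0244 to 0.0429 for Il6st, Il6ra and Lepr, all higher in LKO. Il1rn, also higher, had a limma adjusted p of 0.0196 there, which because of the filter is no support beyond its values. With these weights 3.41% of all genes were called higher. Voom on recovered reads called none of the 9. The array quality weights were 0.309, 2.84 and 0.491 for LKO replicates 1 to 3, so the weighted LKO values rest mostly on replicate 2. The median log2 difference of the 9 genes was 0.64, against 0.035 over all genes.

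**Figure D1:**
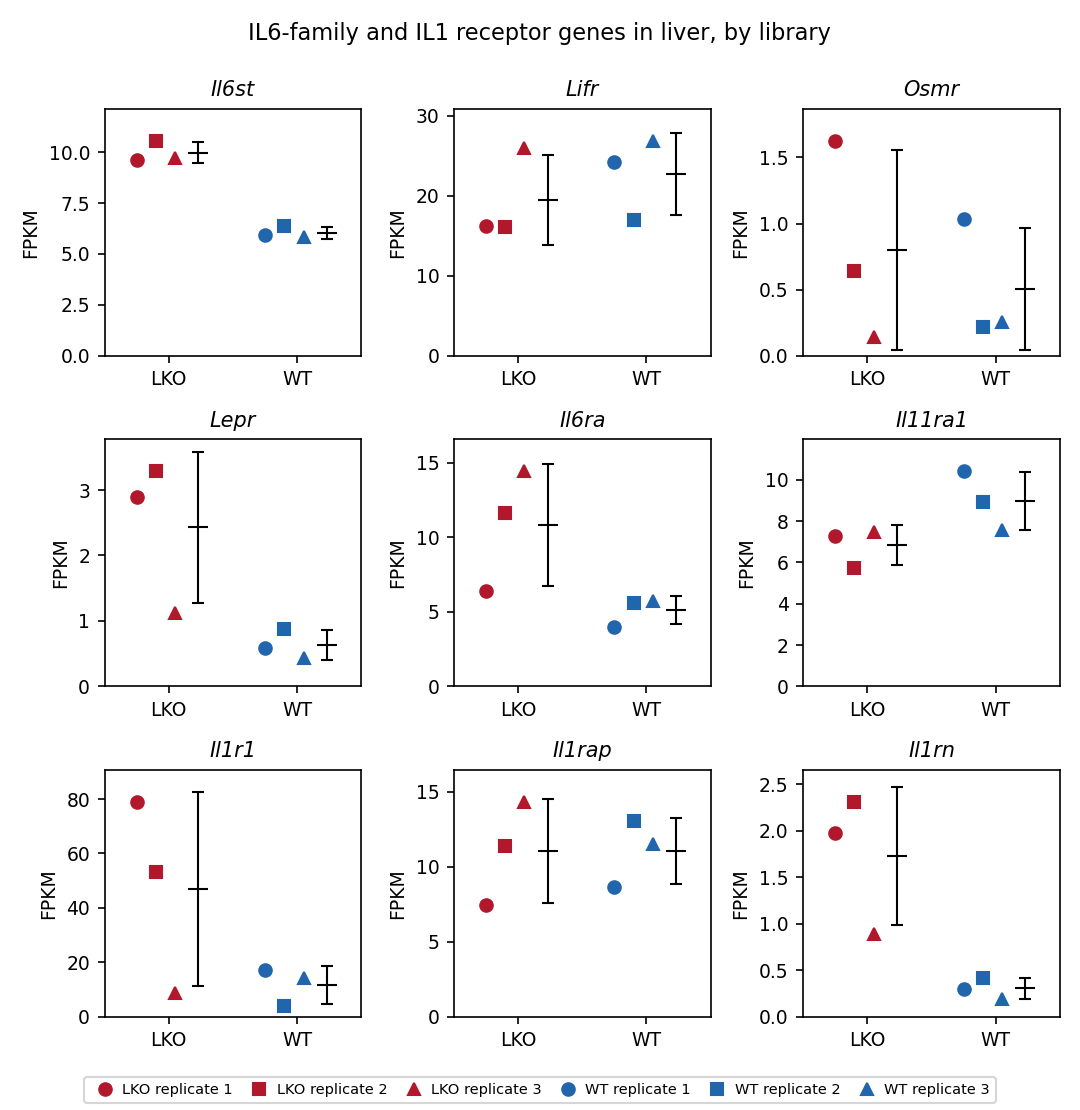
FPKM (vertical axes, from 0) of the 9 receptor genes in the 3 LKO libraries (red, left) and the 3 WT libraries (blue, right), 1 symbol per replicate number, with black bars for the mean and SD of each group. Il6st, Il6ra, Lepr and Il1rn lie higher in every LKO library than in any WT library, while Il1r1 is high in LKO replicates 1 and 2 and at 8.70 FPKM in LKO replicate 3.

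**Figure D2:**
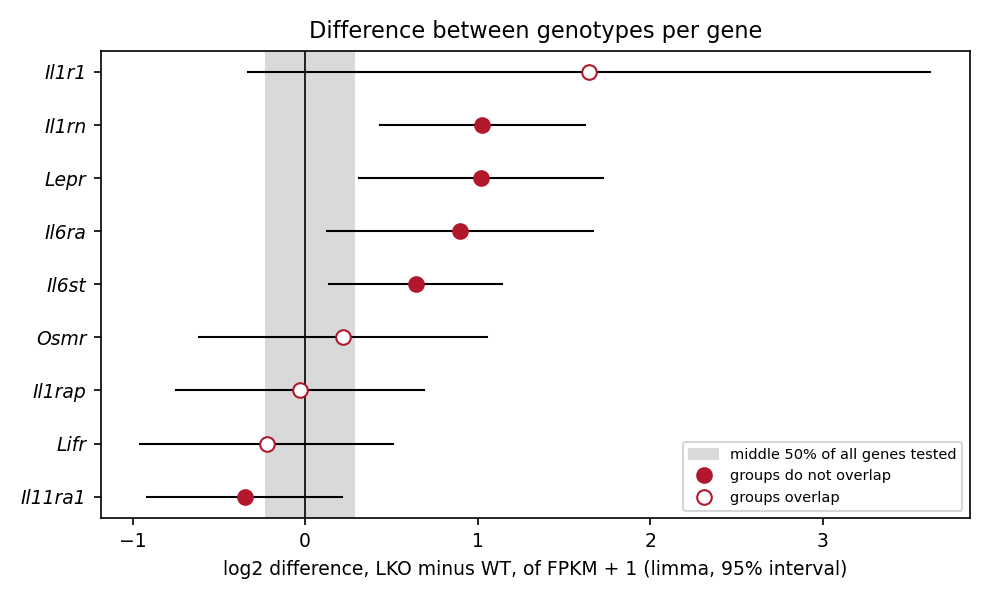
Log2 difference of FPKM + 1, LKO minus WT, for each gene with its 95% interval from limma; filled points mark genes whose groups do not overlap, and the grey band holds the middle 50% of all genes tested. The intervals of Il6st, Il6ra, Lepr and Il1rn lie above 0, and that of Il1r1 is the widest, from -0.33 to 3.62.

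Il6st was the member with the least spread within groups. The gp130 gene (ENSMUSG00000021756, mm10 chromosome 13, 112464070 to 112510086, plus strand) had 9.62, 10.6 and 9.72 FPKM in LKO replicates 1 to 3, against 5.91, 6.35 and 5.82 FPKM in WT replicates 1 to 3. The highest library of a group was 1.10 times its lowest in LKO and 1.09 times in WT, and the groups lay apart. It averaged 9.96 ± 0.51 FPKM in LKO and 6.03 ± 0.28 FPKM in WT (SD, n = 3 each). Its log2 difference was 0.64 ± 0.22 (SE; limma, 95% interval 0.14 to 1.14), with an adjusted p of 0.418. An exact permutation test of a single gene gave p = 0.1 (two-sided), the smallest that 3 against 3 libraries allow. Between 1009 and 2050 reads per library lay on Il6st, so counting error was small beside the difference.

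Promoter windows of the 4 genes that lay higher in every LKO library are shown because these genes share a direction; a further Il1rn window, which overlaps its downstream one, is left out. Each runs from 250 bases before to 50 bases after a RefSeq start site on GRCm38.p6, 5′ to 3′ on the gene's own strand. Capitals mark matches to any of 3 motifs searched on both strands: the STAT motif TTCNNNGAA, the C/EBP motif TTGCNNAA and the NF-kB motif. These motifs occur in 8.30%, 10.8% and 8.46% of all 32851 windows of this length. The windows lie at chr13:112463820-112464119 (plus strand) for Il6st, chr3:89913147-89913446 (minus strand) for Il6ra, chr4:101717157-101717456 and chr4:101717656-101717955 (plus strand) for the upstream and downstream starts of Lepr, and chr2:24336610-24336909 and chr2:24345041-24345340 (plus strand) for an upstream and a downstream start of Il1rn.
Il6st: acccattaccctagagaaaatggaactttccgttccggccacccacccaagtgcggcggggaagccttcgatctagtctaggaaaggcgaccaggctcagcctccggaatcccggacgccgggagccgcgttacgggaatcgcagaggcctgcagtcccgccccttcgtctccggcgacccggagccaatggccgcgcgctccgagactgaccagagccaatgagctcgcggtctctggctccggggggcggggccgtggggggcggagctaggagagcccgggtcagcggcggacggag
Il6ra: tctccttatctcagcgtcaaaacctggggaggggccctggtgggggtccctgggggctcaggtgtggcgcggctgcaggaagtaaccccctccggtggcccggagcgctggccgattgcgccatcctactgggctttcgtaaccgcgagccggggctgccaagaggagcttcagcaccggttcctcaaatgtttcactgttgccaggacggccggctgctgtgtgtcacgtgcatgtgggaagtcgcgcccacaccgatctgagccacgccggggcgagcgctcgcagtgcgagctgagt
Lepr upstream start: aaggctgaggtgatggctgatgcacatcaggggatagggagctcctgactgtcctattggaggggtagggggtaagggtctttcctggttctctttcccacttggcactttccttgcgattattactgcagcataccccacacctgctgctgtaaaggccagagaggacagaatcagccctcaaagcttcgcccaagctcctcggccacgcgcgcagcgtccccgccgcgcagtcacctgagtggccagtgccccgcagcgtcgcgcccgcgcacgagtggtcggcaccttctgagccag
Lepr downstream start: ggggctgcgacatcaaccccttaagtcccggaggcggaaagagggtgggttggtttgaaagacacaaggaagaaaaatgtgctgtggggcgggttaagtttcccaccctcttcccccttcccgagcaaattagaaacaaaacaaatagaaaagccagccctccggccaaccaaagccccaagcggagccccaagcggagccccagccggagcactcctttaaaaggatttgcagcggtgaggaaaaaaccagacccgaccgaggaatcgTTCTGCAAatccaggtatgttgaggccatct
Il1rn upstream start: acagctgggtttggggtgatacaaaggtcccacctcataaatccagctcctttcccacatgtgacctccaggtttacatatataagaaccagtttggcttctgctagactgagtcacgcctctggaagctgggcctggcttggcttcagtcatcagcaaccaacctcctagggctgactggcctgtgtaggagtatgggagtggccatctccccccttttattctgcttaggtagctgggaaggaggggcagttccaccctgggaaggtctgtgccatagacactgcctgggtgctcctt
Il1rn downstream start: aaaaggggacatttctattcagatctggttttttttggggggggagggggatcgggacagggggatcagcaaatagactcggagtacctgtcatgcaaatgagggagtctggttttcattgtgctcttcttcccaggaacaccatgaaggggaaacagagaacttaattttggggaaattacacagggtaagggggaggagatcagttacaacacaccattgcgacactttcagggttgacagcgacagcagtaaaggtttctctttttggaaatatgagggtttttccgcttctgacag
The Il6st window is rich in G and C (68.3%, with 33 CpG pairs), as is that of Il6ra (66.0%, 25 CpG pairs), against a median of 52.7% over all windows. The Il1rn windows hold 54.0% G and C with 1 CpG pair upstream and 46.7% with 5 CpG pairs downstream. One C/EBP match was found, in the downstream Lepr window, 20 bases after the start site. No STAT match lay in any of the 15 windows of the 9 genes, which says only that these letters are not in these windows, and the 2 other windows with a match, 1 C/EBP and 1 NF-kB, belong to Il1r1. The 3 matches lay in different windows, so none overlapped another. Gene totals do not show which start site was used.

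Il6ra, which gives hepatocytes their response to IL6, lay higher in every LKO library but varied more than Il6st. The gene (ENSMUSG00000027947, chromosome 3, 89864059 to 89913196, minus strand) had 6.39, 11.6 and 14.4 FPKM in LKO replicates 1 to 3, against 4.01, 5.60 and 5.74 FPKM in WT replicates 1 to 3. In both groups replicate 1 was the lowest, and LKO replicate 1 was close to the highest WT library. The means were 10.8 ± 4.07 FPKM in LKO and 5.12 ± 0.96 FPKM in WT (SD, n = 3 each; log2 difference 0.90 ± 0.33 SE, limma adjusted p = 0.463). A non-coding gene on the opposite strand shares 242 bases of exon with Il6ra, or 2.80% of its length, and was at most at 0.41 FPKM.

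Il11ra1, the IL11-binding subunit gene (ENSMUSG00000073889, chromosome 4, 41699989 to 41769474, plus strand), was the only member lower in every LKO library. LKO replicates 1 to 3 had 7.29, 5.71 and 7.48 FPKM, against 10.4, 8.95 and 7.59 FPKM in WT replicates 1 to 3. The groups lay apart only narrowly, since LKO replicate 3 and WT replicate 3 were almost level. The log2 difference was -0.35 ± 0.24 (SE; limma, 95% interval -0.91 to 0.22, adjusted p = 0.745). The mouse genome holds the close copy Il11ra2, at most at 0.080 FPKM. The sources used here do not say how reads shared between copies were counted, so the level of Il11ra1 is uncertain.

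Lifr, the receptor subunit for leukemia inhibitory factor, was the most abundant IL6-family receptor transcript in this liver RNA. The gene (ENSMUSG00000054263, chromosome 15, 7090614 to 7197489, plus strand) had 16.2, 16.1 and 25.9 FPKM in LKO replicates 1 to 3, against 24.2, 17.0 and 26.9 FPKM in WT replicates 1 to 3. LKO replicate 3 lay among the WT libraries. The log2 difference was -0.22 ± 0.31 (SE; limma, 95% interval -0.96 to 0.51, adjusted p = 0.894), an interval that holds changes in either direction. Leaving out 1 library moved it between -0.44 (without LKO replicate 3) and -0.09 (without WT replicate 3).

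Osmr, the oncostatin M receptor gene and a neighbour of Lifr (ENSMUSG00000022146, chromosome 15, 6813577 to 6874969, minus strand), was the scarcest member on average over the 6 libraries. LKO replicates 1 to 3 had 1.62, 0.64 and 0.14 FPKM (250, 122 and 32 reads), and WT replicates 1 to 3 had 1.04, 0.22 and 0.25 FPKM (242, 47 and 48 reads). In each genotype replicate 1 was the highest library, and the LKO libraries spanned 11.7-fold. The log2 difference was 0.22 ± 0.36 (SE; limma adjusted p = 0.909). With both replicate 1 libraries left out it was 0.15, and leaving out LKO replicate 1 alone turned the sign to -0.09.

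Lepr, the leptin receptor gene (ENSMUSG00000057722, chromosome 4, 101717404 to 101815352, plus strand), had 2.89, 3.28 and 1.12 FPKM in LKO replicates 1 to 3 (259, 362 and 150 reads). WT replicates 1 to 3 had 0.58, 0.88 and 0.43 FPKM (79, 109 and 47 reads). LKO replicate 3 lay well below the other LKO libraries and just above the highest WT library. The exact 95% counting interval of LKO replicate 3, 0.95 to 1.31 FPKM, meets that of WT replicate 2, 0.72 to 1.06 FPKM; these intervals cover counting error only. The LKO mean was 3.87 times the WT mean, and the log2 difference, on the scale of FPKM + 1 that understates changes of low genes, was 1.02 ± 0.30 (SE; limma adjusted p = 0.354). Lepr makes long, short and soluble receptor forms, and a gene total does not tell them apart.

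Il1r1, the signalling IL1 receptor gene (ENSMUSG00000026072, chromosome 1, 40225080 to 40317257, plus strand), had the widest spread in FPKM of the 9 genes. LKO replicates 1 to 3 had 79.0, 53.1 and 8.70 FPKM, against 17.3, 3.92 and 14.2 FPKM in WT replicates 1 to 3. LKO replicates 1 and 2 lay above every WT library, and LKO replicate 3 lay between the WT libraries. The mean was 46.9 ± 35.5 FPKM in LKO and 11.8 ± 7.01 FPKM in WT (SD, n = 3 each), and the log2 difference was 1.65 ± 0.85 (SE; limma adjusted p = 0.621). It was 2.57 without LKO replicate 3, 1.06 without WT replicate 2 and 1.04 without LKO replicate 1. Reads per library ran from 439 to 6382, counts whose counting error is far below this spread.

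Il1rap, whose product completes the IL1 receptor (ENSMUSG00000022514, chromosome 16, 26581704 to 26730117, plus strand), had nearly equal means of 11.07 ± 3.46 FPKM in LKO and 11.09 ± 2.21 FPKM in WT (SD, n = 3 each). LKO replicates 1 to 3 had 7.45, 11.4 and 14.3 FPKM, against 8.69, 13.1 and 11.5 FPKM in WT replicates 1 to 3. Replicate 1 was the lowest in each genotype. The log2 difference was -0.03 ± 0.31 (SE; limma, 95% interval -0.75 to 0.69, adjusted p = 0.990). The antisense gene Gm20319 overlaps 552 bases of its exons, 4.86% of its length, and reached 33.1 FPKM. The sources used here do not say whether reads were counted by strand.

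Il1rn, the IL1 receptor antagonist gene (ENSMUSG00000026981, chromosome 2, 24336853 to 24351494, plus strand), passed the filter on low values only through the LKO group, so its test is no support beyond its values. LKO replicates 1 to 3 had 1.98, 2.31 and 0.89 FPKM (139, 200 and 94 reads), and WT replicates 1 to 3 had 0.30, 0.42 and 0.20 FPKM (32, 41 and 17 reads). The lowest LKO library was above the highest WT library by more than counting error, with exact 95% counting intervals of 0.72 to 1.09 FPKM in LKO replicate 3 and 0.30 to 0.57 FPKM in WT replicate 2. The LKO mean was 5.65 times the WT mean. The log2 difference was 1.03 ± 0.25 (SE; limma, 95% interval 0.43 to 1.62, adjusted p = 0.275) with a pseudocount of 1, and 2.11 with a pseudocount of 0.1.

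The order of levels differed between the genotypes, with wide overlaps. In LKO the order of mean FPKM was Il1r1 (46.9), Lifr (19.4), Il1rap (11.07), Il6ra (10.8), Il6st (9.96), Il11ra1 (6.83), Lepr (2.43), Il1rn (1.73) and Osmr (0.80). The only neighbours in that order whose libraries did not overlap were Lifr and Il1rap, Il6st and Il11ra1, and Il11ra1 and Lepr. In WT the order was Lifr (22.7), Il1r1 (11.8), Il1rap (11.09), Il11ra1 (8.98), Il6st (6.03), Il6ra (5.12), Lepr (0.63), Osmr (0.50) and Il1rn (0.31). There the pairs of neighbours that lay apart were Il11ra1 and Il6st, Il6st and Il6ra, and Il6ra and Lepr.

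Ratios between member transcripts within a library do not depend on the scale between libraries, and 4 of them were compared. Il6st per Il6ra transcript, by FPKM, was 1.504, 0.91 and 0.67 in LKO replicates 1 to 3 and 1.47, 1.14 and 1.01 in WT replicates 1 to 3. Replicate 1 was the highest in each genotype and the groups overlapped (log2 difference -0.29, two-sided exact permutation p = 0.5). Il1rap per Il1r1 transcript was 0.094, 0.21 and 1.65 in LKO replicates 1 to 3 and 0.50, 3.33 and 0.81 in WT replicates 1 to 3. The accessory transcript thus outnumbered Il1r1, per length, in LKO replicate 3 and in WT replicate 2 (log2 difference -1.78, exact permutation p = 0.3). That difference was -0.90 without LKO replicate 1, -0.99 without WT replicate 2 and -2.96 without LKO replicate 3. Il1rn per Il1r1 transcript ranged from 0.025 to 0.10 in LKO and from 0.014 to 0.11 in WT (log2 difference 0.71, exact permutation p = 0.6). Osmr per Lifr transcript ranged from 0.0054 to 0.10 in LKO and from 0.0094 to 0.043 in WT, so Lifr was the more abundant of these gp130 partners in every library (log2 difference 0.68, exact permutation p = 0.8). Adjusted over the 4 ratios, every p was 0.8, and none of these exact tests could go below 0.1.

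**Figure D3:**
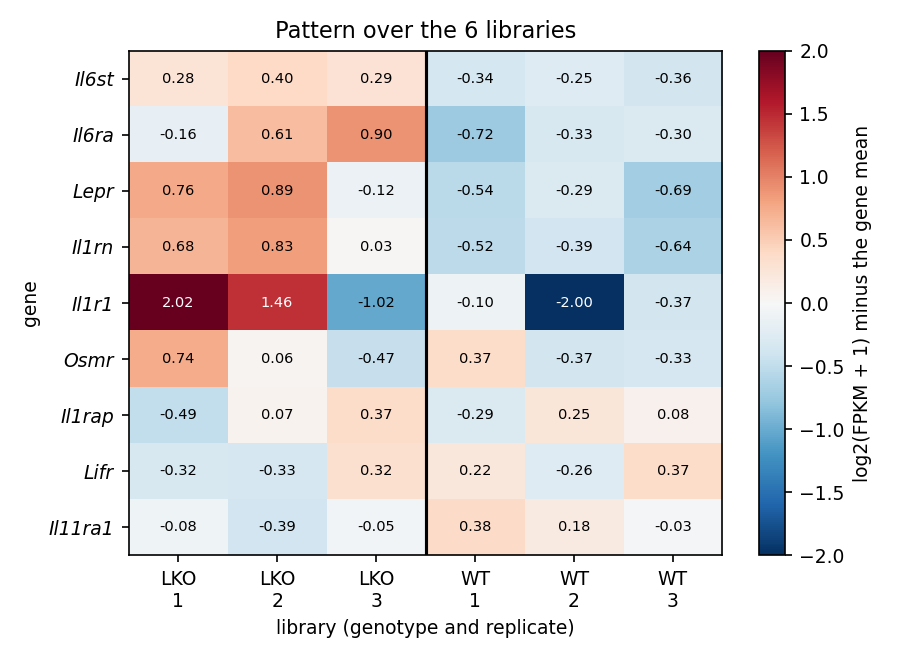
Log2(FPKM + 1) of each gene minus its mean over the 6 libraries (colour scale and printed values), with LKO libraries on the left and WT libraries on the right. Lepr and Il1rn have nearly the same pattern, with LKO replicate 3 close to 0, while Il6ra is highest in LKO replicate 3 (0.90).

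The 4 genes that lay higher in LKO did not share 1 pattern over the libraries, as the map of centred values shows. Lepr and Il1rn resembled each other closely: their centred log2 values differed by 0.086 (root mean square over 6 libraries), against a spread of 0.61 for Lepr and 0.57 for Il1rn about their own means. Each was among the 3 genes most like the other, out of genes tested with an established symbol and averaging 1 FPKM or more. Genes with predicted or numbered clone names, and genes of the mitochondrial genome, were left out. Ugcg, a glycolipid synthesis gene, and Bcl2l11, which encodes a pro-apoptotic protein, completed both sets. Lepr, Il1rn and Bcl2l11 averaged under 1 FPKM in WT (0.63, 0.31 and 0.65 FPKM) and entered this search only through LKO. A shared rise in LKO was thus partly fixed by the limit on the mean, and their likeness is no support for it. Ugcg had 6.83, 8.53 and 3.86 FPKM in LKO replicates 1 to 3, against 2.51, 3.06 and 2.32 FPKM in WT replicates 1 to 3.

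The genes most like the other members were found by the same measure. For Il6st these were Pi4ka, Yap1 and Tmem110 (0.066 to 0.075), for Il6ra Slc13a3, Pawr and Fitm2 (0.082 to 0.11), and for Il11ra1 Kansl1l, Bmt2 and Fam219a (0.024 to 0.061). For Lifr they were Casp9, Nthl1 and Tmcc1 (0.077 to 0.13), for Osmr Usp36, Mgea5 and Hsf1 (0.066 to 0.084), and for Il1rap they included Habp2 and Mxi1 (0.060 and 0.062). The genes nearest to Il1r1, Slc37a1, Cep85 and Snora57, differed from it by 0.42 to 0.47, against its own spread of 1.38. These distances did not simply follow the spread of the member. The nearest gene to Lifr, with a spread of 0.31, was at 0.077, and the nearest to Lepr, with a spread of 0.61, at 0.068. How well the members were matched relative to their spread was not tested.

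Most IL6-family ligand transcripts were too scarce to be tested. Of 12 IL6-family ligand genes, 2 passed the filter on low values and 0 were called by limma (0 at an unadjusted p under 0.05). Lif, Lep and Il31 had no read in any library, and Il6 had 1 read, in WT replicate 2. At these depths 3 reads on 1 kb of transcript correspond to between 0.16 and 0.24 FPKM in LKO and between 0.16 and 0.19 FPKM in WT. The ligands that passed were cardiotrophin 1 (Ctf1), at 0.13 to 1.90 FPKM in LKO and 0.74 to 2.46 FPKM in WT, and cardiotrophin-like cytokine (Clcf1), at 0.14 to 1.42 FPKM in LKO and 0.18 to 1.201 FPKM in WT.

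Of 10 IL1-family ligand and antagonist genes, 6 were matched by symbol and 4 of those were tested. Of the tested genes, Il18 lay lower in every LKO library, as did 7.42% of all genes. Il33, too scarce to be tested, also lay lower there, narrowly, at 0.182 to 0.246 FPKM in LKO and 0.252 to 0.374 FPKM in WT. Il18, a cytokine of the IL1 family with its own receptor, had 5.57, 4.53 and 4.14 FPKM in LKO replicates 1 to 3, against 11.6, 18.0 and 15.9 FPKM in WT replicates 1 to 3. The groups lay apart (log2 difference -1.48 ± 0.26 SE, limma adjusted p = 0.149; 0.00892 with array quality weights), and Il18 was the only gene of this list with an unadjusted p under 0.05. Il1b was at 0.30 to 1.53 FPKM in LKO and 0.067 to 0.82 FPKM in WT, and Il1a at 0.49 to 1.47 FPKM in LKO and 0.32 to 1.43 FPKM in WT. Il18bp, which encodes a protein that neutralises IL18, was at 1.46 to 2.37 FPKM in LKO and 1.65 to 2.12 FPKM in WT. For these last 3 genes the groups overlapped, and 0 genes of the list were called by limma without those weights.

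Other receptors of both families were mostly scarce. Of 7 further receptor genes of the gp130 type, 2 were tested and 0 called by limma (0 at an unadjusted p under 0.05). They were Csf3r, the granulocyte colony-stimulating factor receptor gene, at 0.42 to 3.27 FPKM in LKO and 0.39 to 1.57 FPKM in WT, and Cntfr, at 0.68 to 2.35 FPKM in LKO and 0.90 to 1.47 FPKM in WT. Of 8 further IL1-family receptor genes, Sigirr alone was tested. Sigirr, which encodes an inhibitory member of that family, had 4.58, 7.76 and 11.1 FPKM in LKO replicates 1 to 3, against 4.04, 6.59 and 4.82 FPKM in WT replicates 1 to 3 (limma adjusted p = 0.763). The decoy receptor gene Il1r2 reached 0.50 FPKM in LKO and 0.22 FPKM in WT.

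Downstream of gp130, Stat3 lay higher in every LKO library, and no gene of the list of 23 kinases, STAT factors, inhibitors and adaptors passed the threshold in limma. By unadjusted p under 0.05, 3 lay higher and 1 lower. Every LKO library was above every WT library for 5 of the 23 genes, where this held for 8.0% of all genes, and below for 1, against 7.42% of all genes. With array quality weights 3 were called higher in limma, Stat3 (adjusted p = 0.0153), Ptpn1 (adjusted p = 0.0296) and Yap1 (adjusted p = 0.0379), where 3.41% of all genes were. Stat3 had 19.0, 24.0 and 13.4 FPKM in LKO replicates 1 to 3, against 7.44, 7.15 and 7.22 FPKM in WT replicates 1 to 3 (log2 difference 1.23 ± 0.28 SE, limma adjusted p = 0.232). Yap1, a transcriptional co-activator that gp130 can activate through Src-family kinases, was at 8.23 ± 1.07 FPKM in LKO and 4.90 ± 0.051 FPKM in WT (SD, n = 3 each; limma adjusted p = 0.427). Ptpn1, a phosphatase that acts on JAK2 and the leptin receptor complex, had 9.99, 16.5 and 3.87 FPKM in LKO replicates 1 to 3, against 2.96 to 3.61 FPKM in WT. Pias3, an inhibitor of STAT3, was the lower one, at 0.24 to 0.98 FPKM in LKO and 0.997 to 3.01 FPKM in WT. The median log2 difference of the list was 0.43, with 18 of 23 genes above 0, where 54.1% of all genes were above 0. The 18 include Socs1, which passed the filter on low values only through LKO (1.41 FPKM on average in LKO and 0.34 FPKM in WT).

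Downstream of IL1R1, 22 of 25 genes were tested, 0 passed the threshold in limma and 0 had an unadjusted p under 0.05. Every LKO library was above every WT library for 5 of them, against 8.0% of all genes. With array quality weights 1 of the 22, Rela, was called higher in limma (adjusted p = 0.0469). Rela, which encodes the p65 subunit of NF-kB, had 29.3, 35.0 and 24.6 FPKM in LKO replicates 1 to 3, against 23.0, 18.5 and 15.8 FPKM in WT replicates 1 to 3 (limma adjusted p = 0.581). Myd88, the adaptor of the receptor, had 12.4, 14.0 and 6.07 FPKM in LKO replicates 1 to 3, against 6.89, 6.02 and 5.72 FPKM in WT replicates 1 to 3, so LKO replicate 3 again lay within WT. The kinase genes Irak2 and Irak4 were at 3.65 to 13.2 FPKM and 1.49 to 1.91 FPKM in LKO, and at 3.03 to 4.26 FPKM and 0.72 to 1.29 FPKM in WT. The median log2 difference of the list was 0.25, with 16 of 22 genes above 0.

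Genes that cut receptors from the cell surface, and their regulators, were also compared, since soluble forms of IL6RA and IL1R1 arise in this way. Of 9 genes, 7 were tested and 0 were called by limma, and 1 had an unadjusted p under 0.05. That gene, Adam17, the protease that sheds the IL6 receptor, had 3.20, 3.18 and 2.50 FPKM in LKO replicates 1 to 3, against 2.15, 1.53 and 1.71 FPKM in WT replicates 1 to 3 (log2 difference 0.50 ± 0.21 SE, limma adjusted p = 0.520). Its partner genes Rhbdf1 and Rhbdf2 overlapped between groups, at 0.20 to 2.70 FPKM and 2.02 to 7.66 FPKM in LKO and at 0.90 to 2.66 FPKM and 1.42 to 2.75 FPKM in WT. Erap1, an aminopeptidase linked to receptor shedding, was at 2.68 to 11.7 FPKM in LKO and 3.07 to 5.53 FPKM in WT.

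**Figure D4:**
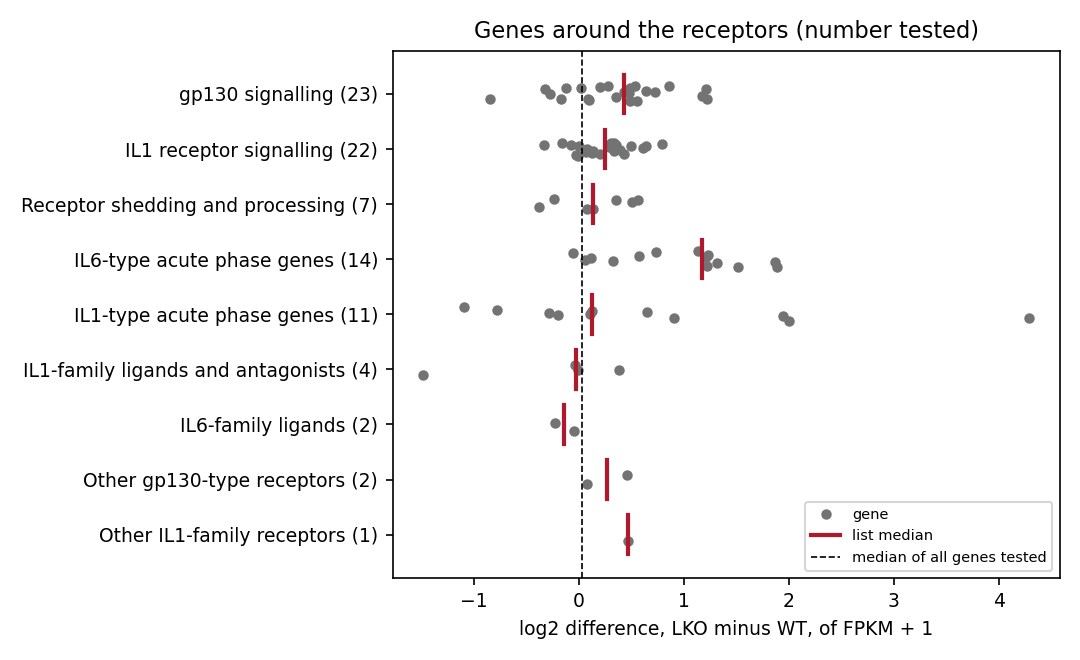
Log2 difference of FPKM + 1, LKO minus WT, for each tested gene (grey points) of the lists around the receptors, with the list median (red bar) and the median of all genes tested (dashed line, 0.035). The list of IL6-type acute phase genes has a median of 1.17, and no gene on these lists passed the threshold in limma without array quality weights.

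Of the acute phase genes that these receptors are known to control, the IL6-type list had a median log2 difference of 1.17 over 14 tested genes, and the IL1-type list 0.12 over 11. No gene of either list was called by limma; at an unadjusted p under 0.05, 6 IL6-type genes and 1 IL1-type gene lay higher, where 9.22% of all genes passed that limit in either direction. With array quality weights limma called 7 IL6-type genes and 1 IL1-type gene higher, against 3.41% of all genes. Itih4, which encodes an inter-alpha-trypsin inhibitor heavy chain, had 680, 691 and 620 FPKM in LKO replicates 1 to 3, against 228, 217 and 248 FPKM in WT replicates 1 to 3 (limma adjusted p = 0.175). Its groups lay far apart, and Stat3, given above, also belongs to the IL6-type list. Itih3, of the same family, had 395, 286 and 152 FPKM in LKO replicates 1 to 3, against 181, 82.8 and 86.4 FPKM in WT replicates 1 to 3, and overlapped. The fibrinogen gene Fga had 1103, 2584 and 1114 FPKM in LKO replicates 1 to 3, against 158, 779 and 508 FPKM in WT replicates 1 to 3. Lcn2, an IL1-type gene, had 140, 376 and 6.66 FPKM in LKO replicates 1 to 3, against 7.81, 0.67 and 2.71 FPKM in WT replicates 1 to 3, and LKO replicate 3 lay among the WT libraries, as it did for Il1r1. Serpina3n and Socs3, of the IL6-type list, likewise had LKO replicates 1 and 2 above WT and LKO replicate 3 among the WT libraries. Of the 14 tested genes of that list, 6 lay higher in every LKO library, as did 8.0% of all genes. The other IL1-type genes named by smallest p overlapped between groups: the complement gene C3 ranged from 554 to 1466 FPKM in LKO and from 336 to 709 FPKM in WT, and the serum amyloid A gene Saa1 from 7.56 to 547 FPKM in LKO and from 6.45 to 83.6 FPKM in WT. Saa2 ranged from 2.03 to 206 FPKM in LKO and from 1.96 to 39.8 FPKM in WT.

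Markers of some other liver cells varied along with some of these values, and others did not. In bulk RNA fewer cells of a type and less RNA per cell cannot be told apart. The 10 neutrophil markers summed to 16.6, 11.8 and 3.29 FPKM in LKO replicates 1 to 3 and to 3.82, 0.95 and 3.50 FPKM in WT replicates 1 to 3, so LKO replicates 1 and 2 were high, as they were for Il1r1, Il1rn and Lepr. In LKO replicate 3 the sum lay within WT, as did Il1r1, while Il1rn and Lepr stayed above every WT library. Of the 10 neutrophil markers, 4 were tested and 0 were called by limma. S100a8 and S100a9 had an unadjusted p under 0.05, and S100a8 passed the filter only through the LKO group (2.51 FPKM on average in LKO and 0.38 FPKM in WT), as did Retnlg (0.89 FPKM in LKO and 0.20 FPKM in WT). The neutrophil markers Ly6g and Ngp had no read in any library. The 14 stellate cell and fibroblast markers summed to 116, 76.1 and 38.1 FPKM in LKO replicates 1 to 3 and to 54.9, 61.5 and 60.8 FPKM in WT replicates 1 to 3, and Ecm1 made up most of each sum. Kupffer cell and macrophage markers (12 genes) summed to 77.9, 29.4 and 76.7 FPKM in LKO replicates 1 to 3. In WT replicates 1 to 3 they summed to 71.9, 61.0 and 28.6 FPKM. Sinusoidal endothelial markers (12 genes) summed to 80.2, 30.6 and 35.4 FPKM in LKO replicates 1 to 3. In WT replicates 1 to 3 they summed to 67.2, 51.6 and 61.7 FPKM. For both of these lists LKO replicate 2 was the lowest LKO library, unlike for Il1r1, Il1rn and Lepr. The 10 hepatocyte markers summed to between 49170 and 66530 FPKM in LKO and between 44510 and 58420 FPKM in WT, so the labelled tissue had its defining transcripts. The part of these cell types in the values of the receptor genes was not tested. Cholangiocyte markers (8 genes) ranged from 9.42 to 31.2 FPKM in LKO and from 14.9 to 24.8 FPKM in WT. The remaining sums were 8.94 to 16.9 FPKM in LKO and 22.8 to 70.2 FPKM in WT for B and plasma cells (8 genes), 0.80 to 2.56 FPKM in LKO and 1.60 to 2.71 FPKM in WT for T and NK cells (8 genes), and 91.2 to 149 FPKM in LKO and 139 to 330 FPKM in WT for erythroid cells (6 genes).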

How the data were processed

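Per the labels' protocols, liver total RNA was made into NEBNext Ultra libraries. HISAT2 2.0.5, DESeq2 1.20.0, featureCounts 1.5.0-p3, CASAVA and mm10 are named, without roles, in the submitters' processing notes; the sources used here do not give the annotation or strand setting. The authors deposited 1 table of FPKM per library, a unit read from the values: FPKM times merged exon length (GENCODE vM21) gave whole reads, within 0.05, for 96.1% to 96.4% of values. The library scale matched median-of-ratios size factors (0.995 to 1.00 times).

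Genotypes were compared over all genes with limma-trend (limma 3.58.1, R 4.3.3, robust) on log2(FPKM + 1), for the 11672 genes averaging 0.5 FPKM or more, with Benjamini-Hochberg adjustment and a threshold of 0.05. The design allowed for counts; the test for normalized values was used. Ratios were compared by exact permutation tests. The fit was tested on simulated data. Lists name genes by smallest p, up to 4 each, and pattern neighbours by root mean square difference, of which 1 is not reported here. A few further genes were named after their values were seen. Members, lists, tests and alternatives were chosen with earlier results of these data known. Promoter sequences are from RefSeq (GRCm38.p6), with windows for all 9 members. Alternatives were other pseudocounts and filters, a replicate block, each library and both replicate 1 libraries left out, voom on recovered reads, other scalings and array quality weights. Figures used Python 3.11.15 and matplotlib 3.10.9.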

Additional observations from a re-analysis of the deposited data

How the results depend on the processing

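A p that misses the threshold does not show that a gene did not differ, and Osmr, Lepr and Il1rn rest on 17 to 362 reads per library. Il6st, Il6ra, Lepr, Il1rn and Il1r1 kept a positive and Il11ra1 and Lifr a negative log2 difference in all 15 alternatives run. Over all genes, 1 was higher and 4 lower in LKO; with no filter on low values the counts were 0 and 1, with quantile normalization 0 higher, with equal library sums 0 higher, with both replicate 1 libraries left out 1 lower, and with array quality weights 398 and 390, with 4 members higher. Those weights were 0.309, 2.84 and 0.491 for LKO replicates 1 to 3 and 0.530, 1.37 and 3.19 for WT replicates 1 to 3. All calls with these weights therefore rest mostly on LKO replicate 2 for the LKO group. The 4 members include Il1rn, which passed the filter on low values only through LKO. Leaving out 1 library gave 0 to 13 genes higher (13 without LKO replicate 3, and 0 without LKO replicate 1, WT replicate 2 or WT replicate 3) and 0 to 4 lower (2 without LKO replicate 2, 1 without WT replicate 1 and 0 without WT replicate 3).

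With the replicate block, 0 genes were higher and 0 lower, and no member was called. Same-numbered libraries did not all deviate together (correlations over genes of 0.49, 0.30 and -0.02 for numbers 1 to 3), so the numbers were not taken as pairs.

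Signs were not stable for small differences. Leaving out 1 library moved Osmr between -0.094 and 0.51, Il1rap between -0.22 and 0.21, Ctf1 between -0.52 and 0.16, Clcf1 between -0.40 and 0.21, Cntfr between -0.16 and 0.33, Il1a between -0.25 and 0.19, Il18bp between -0.16 and 0.062 and Erap1 between -0.095 and 0.80. With both replicate 1 libraries left out, Il1rap was at 0.058 and Cntfr at -0.12. Quantile normalization gave 0.075 for Clcf1 and 0.049 for Il1a; Il1a was at 0.029 with a pseudocount of 0.1 and at 0.053 with voom. The log2 difference of the ratio of Osmr to Lifr ranged from -0.25 to 1.86 without 1 library, and that of Il1rn to Il1r1 turned to -0.62 with a pseudocount of 1, which weighs on the low FPKM of Il1rn.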

Other observations

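Genes beside 2 of the receptor genes were looked at after their values were seen. Leprot, the neighbour of Lepr, had 7.67, 10.2 and 5.88 FPKM in LKO replicates 1 to 3, against 4.24, 5.63 and 4.32 FPKM in WT replicates 1 to 3. Every LKO library was thus above every WT library, as for Lepr and for 8.0% of all genes. For Leprot, LKO replicate 3 was again the lowest LKO library (log2 difference 0.62 ± 0.27 SE, limma adjusted p = 0.549). Ccl27a, a chemokine gene on the strand opposite to Il11ra1 that shares 8 bases of exon with it, had 3.25, 2.29 and 1.26 FPKM in LKO replicates 1 to 3, against 9.60, 4.62 and 5.44 FPKM in WT replicates 1 to 3. The LKO libraries of Ccl27a all lay below the WT libraries (log2 difference -1.20 ± 0.34 SE, limma adjusted p = 0.338), as for Il11ra1 and for 7.42% of all genes.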
